A study of Mus musculus with 2 samples.

Results

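The genes described here are targets of Wnt signaling, grouped for their link to the narrow ring of hepatocytes around the central vein of the liver lobule. They were chosen by name, and 10 genes were named: Glul, Oat, Slc1a2, Rhbg, Lgr5, Axin2, Tbx3, Rnf43, Znrf3 and Nkd1. Of these, Rnf43, Znrf3 and Nkd1 were less confined to the central end of the lobule in these sections than Oat or Slc1a2. Of the 19465 genes in the count tables, 9 were members with a row. Glul was not analysed here. Their RNA was read with 10x Visium for fixed, paraffin-embedded (FFPE) tissue: probe pairs ligate on an RNA, bind to slide spots with known barcodes, and each molecule is counted once through its unique molecular identifier (UMI). Each genotype, AEG-1-WT or AEG-1-C75S, was represented by a single mouse and 1 liver section of 5 μm. The mice were naïve, untreated female littermates of 8 weeks, bred from heterozygous parents. AEG-1-C75S mice carry a CRISPR/Cas9 knock-in in which the palmitoylated cysteine of AEG-1 (astrocyte elevated gene-1, the product of Mtdh) is replaced by serine in every cell that expresses the gene, and AEG-1-WT mice carry the unedited gene.

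In the liver, endothelial cells of the central vein secrete Wnt ligands and the agonist R-spondin 3. Wnt ligands bind Frizzled receptors and their LRP co-receptors on the neighbouring hepatocytes, which stops the degradation of β-catenin and lets it activate genes together with TCF/LEF factors. R-spondins bind LGR receptors and remove the ubiquitin ligases Rnf43 and Znrf3, which otherwise clear Frizzled from the cell surface. The ring of hepatocytes next to the central vein is known for glutamine synthesis, which captures the ammonia that escapes the urea cycle of the periportal cells upstream. Oat (ornithine aminotransferase), Slc1a2 (a glutamate transporter) and Rhbg (an ammonia channel) serve this function. Axin2, Nkd1, Rnf43 and Znrf3 are feedback inhibitors that the pathway switches on in the cells it acts on, Lgr5 is a receptor of R-spondins, and Tbx3 is a transcription factor.

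The AEG-1-WT section held 42618523 UMIs on 2316 spots and the other section 41892649 UMIs on 2167 spots. Leaving out spots with more than 50000 UMIs removed 7 and 4 spots, and the median spot then held 16830 and 18808 UMIs. The 2 tables shared 1896 spot barcodes, since slides carry a common barcode set. A spot is a small region that can hold several cells, so the values below are of regions and not of cells. Spots of each section were ordered by the ratio of Cyp2f2 UMIs plus 1 (a periportal cytochrome P450) to Cyp2e1 UMIs plus 1 (a pericentral one) and divided into 10 bins of equal spot number. Bin 1 is the central end and bin 10 the portal end, with 230 to 231 spots a bin in AEG-1-WT versus 216 to 217 in AEG-1-C75S. UMIs of a gene were summed over the spots of a bin and divided by the bin's total, as CPM (counts scaled to a fixed total of UMIs). Intervals in square brackets are 95% intervals from the UMI counts (exact Poisson for levels, exact binomial for ratios and shares) and cover counting error only. With 1 section per genotype there was no replicate and no test, so each difference between AEG-1-C75S and AEG-1-WT compares those sections and not the genotypes. Bins are also ranks within a section: bin 1 ended at a Cyp2f2 to Cyp2e1 ratio of 0.0376 in AEG-1-WT versus 0.0602 in AEG-1-C75S.

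The order of the spots was checked against genes that did not make it. Of 16 other pericentral hepatocyte genes with at least 50 UMIs in the end bins, 14 were at least 2-fold higher in bin 1 than in bin 10 in each section. Of 11 periportal genes, 8 (AEG-1-WT) and 9 (AEG-1-C75S) were at least 2-fold higher in bin 10. Markers of bile duct and connective tissue lay at the portal end in AEG-1-WT and less uniformly so in AEG-1-C75S. At least 2-fold higher in bin 10 were 4 of 4 connective tissue markers in AEG-1-WT and 2 of 4 in AEG-1-C75S. For the others in AEG-1-C75S, the log2 ratio of bin 1 over bin 10 was 0.24 [-0.47, 0.97] (Col1a1) and -0.34 [-1.08, 0.39] (Dpt). The summed level of 5 cholangiocyte markers was 15.5 CPM in bin 1 and 239 CPM in bin 10 of AEG-1-WT, and 26.6 and 147 CPM in AEG-1-C75S. That of 4 connective tissue markers was 32.7 and 172 CPM in AEG-1-WT but 25.8 and 44.0 CPM in AEG-1-C75S, and all 4 were at least 1.5-fold lower in the AEG-1-C75S section. The part of this unequal portal tissue in the results below was not tested, except where the tissue was left out. Each of the 5 cholangiocyte and 4 connective tissue markers had UMIs in both sections.

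All 9 measured members were highest within bins 1 to 3, and they fell toward the portal end by very different amounts. The nitrogen genes Oat and Slc1a2 were 12.7 to 18.7 times higher in bin 1 than in bin 10, whereas the ubiquitin ligase Znrf3 was 2.40 times higher in AEG-1-WT and 1.94 times in AEG-1-C75S. Of the 8 members with at least 50 UMIs in the end bins, 8 (AEG-1-WT) and 7 (AEG-1-C75S) were at least 2-fold higher in bin 1, against 2.17% of 8598 genes in AEG-1-WT and 2.36% of 8520 genes in AEG-1-C75S. These are shares of all genes, while the members were named for a central link. Of 16 other pericentral genes, 14 also passed 2-fold in each section, so the count does not set the members apart from those. The minimum adds both end bins, so a gene can reach it mainly through bin 1. Rhbg did so, with 61 and 3 UMIs in AEG-1-WT and 56 and 10 in AEG-1-C75S. The members had a median log2 ratio of bin 1 over bin 10 of 2.84 in AEG-1-WT versus 2.70 in AEG-1-C75S, while all genes had a median of 0.15 and 0.12. The plot of levels by bin shows each member in both sections.

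**Figure D1:**
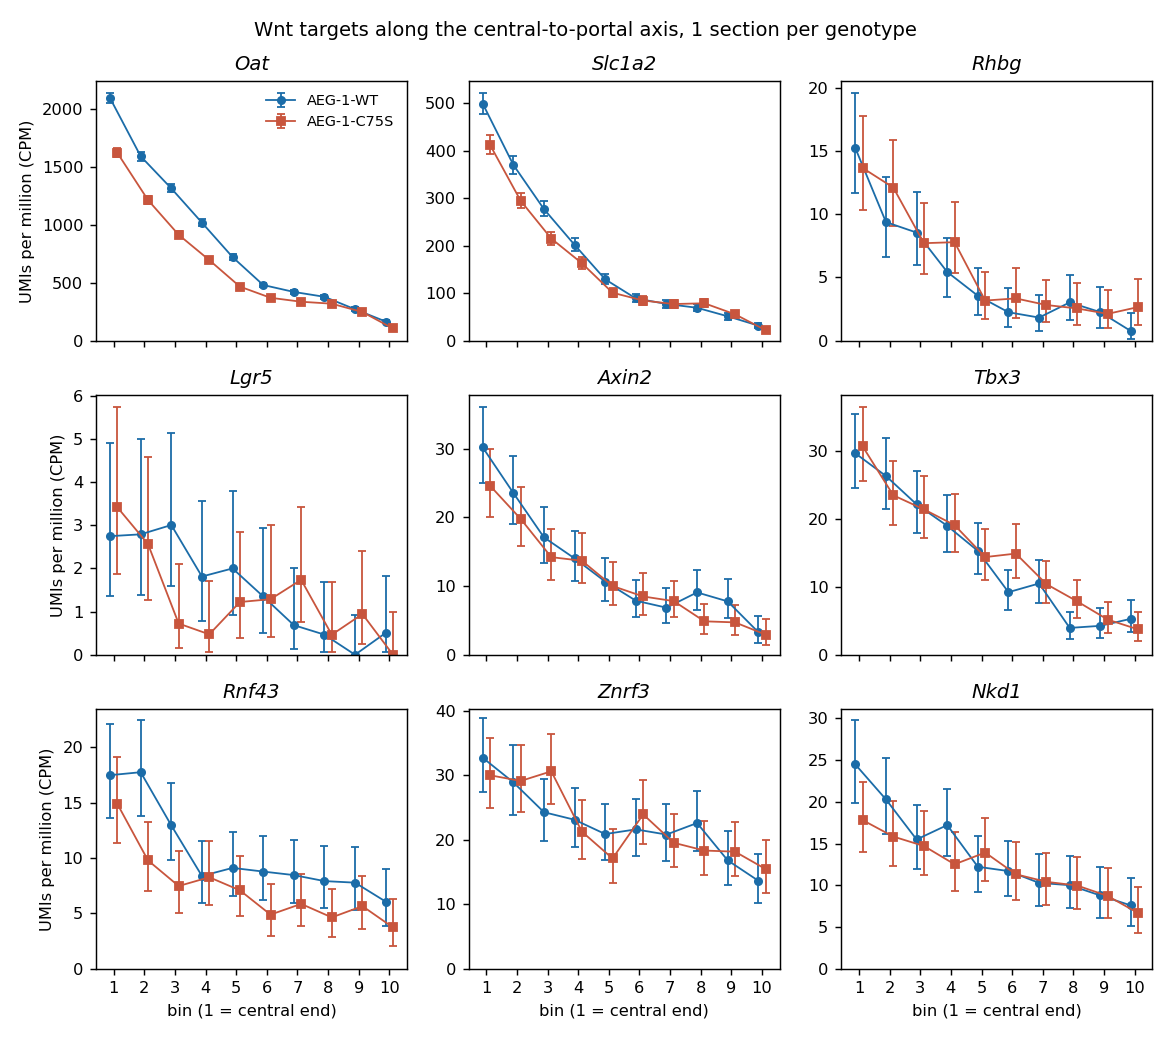
Level of each measured member (CPM, linear axis from 0) in the 10 bins from the central end (bin 1) to the portal end (bin 10) of the AEG-1-WT section (circles) and the AEG-1-C75S section (squares), with 95% Poisson intervals of the UMI counts. Oat goes from 2093 to 165 CPM in AEG-1-WT while it goes from 1619 to 105 CPM in AEG-1-C75S, whereas Znrf3 keeps 41.7% and 51.5% of its bin 1 level in bin 10.

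Oat (chr7:132557475-132576398 of GRCm38.p6) encodes the mitochondrial enzyme that turns ornithine toward glutamate. In AEG-1-WT it was at 2093 CPM in bin 1, 1591 in bin 2, 1314 in bin 3, 1018 in bin 4, 721 in bin 5, 481 in bin 6, 421 in bin 7, 379 in bin 8, 271 in bin 9 and 165 in bin 10. In AEG-1-C75S the levels from bin 1 to bin 10 were 1619, 1213, 914, 695, 467, 370, 336, 319, 247 and 105 CPM. The level thus went down at every step in both sections and was below 50% of bin 1 from bin 4 on. The log2 ratio of bin 1 over bin 10 was 3.66 [3.55, 3.78] in AEG-1-WT, against 3.94 [3.80, 4.09] in AEG-1-C75S. Bins 1 and 2 held 41.4% of the Oat UMIs of the AEG-1-WT section versus 45.0% of those of the AEG-1-C75S section, against 18.8% and 20.1% of all UMIs.

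Slc1a2 (chr2:102658239-102790784), which carries glutamate into the cell, also went down from the central end, with a somewhat steeper slope than Oat. The slope of log2 CPM per bin was -0.44 against -0.38 in AEG-1-WT (difference -0.06 [-0.07, -0.04]) and -0.40 against -0.38 in the other section (-0.02 [-0.04, -0.00]). This slope was added after the bins had been examined. By the log2 ratio of bin 1 over bin 10, Slc1a2 exceeded Oat by 0.31 [0.03, 0.59] in AEG-1-WT. In AEG-1-C75S the difference was 0.28 [-0.07, 0.63], with an interval that included 0. In AEG-1-WT its level was 499.7 CPM in bin 1, 371 in bin 2, 277 in bin 3, 202 in bin 4, 129 in bin 5 and 31.8 in bin 10. In AEG-1-C75S it was 413, 295, 215, 163 and 101 CPM in bins 1 to 5 and 22.1 CPM in bin 10. Between bins 6 and 9 the profile was flatter than nearer the vein, going from 89.1 to 51.4 CPM in AEG-1-WT and from 84.7 to 55.6 CPM in AEG-1-C75S. The log2 ratio of bin 1 over bin 10 was 3.97 [3.71, 4.24] and 4.22 [3.90, 4.56]. Among the 8733 genes that had 500 UMIs or more in all, Slc1a2 ranked first and Oat second by the lower bound of this ratio in the section where it was smaller. They were followed by Slc13a3 (a carrier of dicarboxylates), Cyp2e1, which made the axis, and Gulo (the last enzyme of vitamin C synthesis). By the ratio itself, Slc13a3 was above Slc1a2 in both sections (4.22 and 4.90).

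Rhbg (chr3:88242874-88254739), the ammonia channel, was at 5.16 CPM over the AEG-1-WT section and 5.81 CPM over the AEG-1-C75S section. It had 61 UMIs in bin 1 and 3 in bin 10 of AEG-1-WT, a log2 ratio of 4.33 [2.71, 6.65]. In AEG-1-C75S it had 56 UMIs in bin 1 and 10 in bin 10, a log2 ratio of 2.36 [1.37, 3.49]. From bin 1 to bin 5 it had 61, 37, 37, 24 and 16 UMIs in AEG-1-WT, against 56, 52, 32, 33 and 13 in AEG-1-C75S. Its level in bin 2 was 61.6% of that in bin 1 in AEG-1-WT, against 88.7% in AEG-1-C75S, and the log2 ratio of bin 1 over bin 5 was 2.10 in each. The share of its UMIs in bins 1 and 2, 45.0% [38.2, 51.8] and 44.6% [38.3, 51.1], was close to that of Slc1a2, 46.2% and 47.0%.

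Slc1a2 and Oat moved together along the bins, so their promoter windows are shown. The sequences are the 250 bases before the annotated start in RefSeq (GRCm38.p6), 5′ to 3′ on the strand of the gene. Capitals mark a match to the TCF/LEF motif CTTTGAA or CTTTGAT on either strand.
Slc1a2 (chr2:102706188-102706437, + strand): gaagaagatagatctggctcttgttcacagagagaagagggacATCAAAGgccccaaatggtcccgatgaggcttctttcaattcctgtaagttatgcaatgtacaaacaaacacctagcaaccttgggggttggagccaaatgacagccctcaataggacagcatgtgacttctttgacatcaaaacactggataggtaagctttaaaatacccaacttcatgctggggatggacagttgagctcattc
Oat (chr7:132576399-132576648, - strand): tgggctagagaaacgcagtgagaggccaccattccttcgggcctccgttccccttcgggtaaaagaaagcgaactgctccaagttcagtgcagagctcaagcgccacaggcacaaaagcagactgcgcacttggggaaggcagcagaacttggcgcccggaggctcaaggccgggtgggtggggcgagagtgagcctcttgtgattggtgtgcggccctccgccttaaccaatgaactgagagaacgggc
Slc1a2 held 1 match, ATCAAAG, at position -207 from the start, which lies inside the span of the gene. Of the 5 members with a window in the table (Oat, Slc1a2, Axin2, Rnf43 and Nkd1), with 250 bases before and 50 after the start searched, only Slc1a2 held a match. The same motif was in 8.65% of all 32851 windows of this length. A match is a run of letters and not a measured binding site, and windows without one say nothing about the factor.

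Axin2 (chr11:108917828-108950783), the scaffold of the complex that degrades β-catenin, is widely used as a readout of Wnt activity. In AEG-1-WT it was at 30.2 CPM (121 UMIs) in bin 1, 10.7 CPM in bin 5 and 3.29 CPM (13 UMIs) in bin 10. In AEG-1-C75S it was at 24.6 CPM (101 UMIs), 10.0 CPM and 2.93 CPM (11 UMIs) in the same bins. The log2 ratio of bin 1 over bin 10 was 3.20 [2.37, 4.15] and 3.07 [2.17, 4.12], so of the feedback inhibitors Axin2 lay nearest to Oat.

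Tbx3 (chr5:119670534-119684724), a transcriptional repressor, kept its level longer than Oat. It was at 29.7 CPM in bin 1 and 15.3 CPM in bin 5 of AEG-1-WT, 51.6% of its first level, where Oat was at 34.5%. In AEG-1-C75S it was at 30.7 and 14.4 CPM, 46.9% of its first level, where Oat was at 28.8%. At the portal end Tbx3 was at 5.31 and 3.73 CPM, and its log2 ratio of bin 1 over bin 10 was 2.48 [1.81, 3.23] and 3.04 [2.24, 3.95].

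Nkd1 (chr8:88521342-88594887), which blocks Dishevelled, was at 24.5 CPM in bin 1 and 7.58 CPM in bin 10 of AEG-1-WT, a log2 ratio of 1.69 [1.09, 2.33]. In AEG-1-C75S it was at 17.8 and 6.66 CPM, a ratio of 1.42 [0.75, 2.14]. Rnf43 (chr11:87663087-87735539) was at 17.5 and 6.07 CPM in AEG-1-WT, 2.88 times higher in bin 1 (log2 interval 0.84 to 2.26), and at 14.9 and 3.73 CPM in AEG-1-C75S, 3.99 times higher (1.14 to 2.95). Its paralog Znrf3 (chr11:5276329-5444847) was at 32.7 and 13.7 CPM in AEG-1-WT, versus 30.0 and 15.5 CPM in AEG-1-C75S, with ratios of 1.26 [0.79, 1.75] and 0.96 [0.49, 1.43]. Bins 6 to 10 held 42.6% of the Znrf3 UMIs in each section and 34.4% to 38.7% of those of Rnf43 and Nkd1, against 18.2% to 23.1% of those of Oat, Slc1a2 and Rhbg and 49.8% and 49.9% of all UMIs. With the 10% of spots richest in connective tissue and cholangiocyte markers left out, the Znrf3 ratio was 1.21 [0.72, 1.73] in AEG-1-WT, against 1.02 [0.54, 1.53] in AEG-1-C75S.

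Lgr5 (chr10:115450314-115587780), the R-spondin receptor best known from stem cells of the gut, was near the limit of detection. The AEG-1-WT section held 65 Lgr5 UMIs and the AEG-1-C75S section 54. Bin 1 of AEG-1-WT held 11 and bin 10 held 2, a ratio of 5.43 with a log2 interval of 0.25 to 5.66. Bin 1 of AEG-1-C75S held 14 and bin 10 none, which is 4.27-fold against a floor of 3 UMIs. The lower bound of the log2 ratio from these counts was 1.60. In bin 10 of AEG-1-C75S, 0 of 216 spots had a Lgr5 UMI, which allows a share of up to 1.69% (exact binomial upper bound) and says nothing of expression below detection. The floor of 3 counts corresponds to 1.39% of these spots and is not a bound. In bins 6 to 10 the sections held 13 and 19 UMIs, so Lgr5 UMIs were not limited to the central bins. Whether these came from cells outside the ring was not tested.

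The members were then compared with each other by the slope of log2 CPM per bin over all 10 bins, a measure added after the bins had been examined. The slopes were -0.44 for Slc1a2, -0.42 for Rhbg, -0.38 for Oat, -0.35 for Lgr5, -0.32 for Tbx3, -0.30 for Axin2, -0.18 for Nkd1, -0.17 for Rnf43 and -0.10 for Znrf3 in AEG-1-WT. In AEG-1-C75S they were -0.40, -0.35, -0.38, -0.28, -0.28, -0.31, -0.13, -0.19 and -0.11 in the same order of genes. Of the 36 pairs of members, 27 (AEG-1-WT) and 22 (AEG-1-C75S) differed in slope by an interval beyond 0. In 22 pairs this held in both sections with the same order, and in 0 pairs with the opposite order. Oat, Slc1a2, Rhbg, Axin2 and Tbx3 were each steeper than Rnf43, Znrf3 and Nkd1 in both sections (15 of 15 pairs). These 2 groups were made from the same slopes after the values were seen, so the count describes the grouping and does not test it. Lgr5 was placed in neither group. In AEG-1-C75S its slope difference included 0 against Nkd1 (-0.15 [-0.30, 0.01]) and against Rnf43 (-0.09 [-0.25, 0.07]). Neighbours in the order were often not resolved: the intervals of Slc1a2 against Rhbg, Axin2 against Tbx3 and Rnf43 against Nkd1 included 0 in both sections. By the ratio of bin 1 over bin 10, 18 and 17 of 28 pairs were resolved, 12 of them in both sections with the same order. For the 15 pairs of the 2 groups the end-bin ratio resolved 10 in both sections, and the 5 others were Rhbg with Nkd1 and Rnf43, Tbx3 with Nkd1 and Rnf43, and Axin2 with Rnf43. The plot of end-bin ratios shows these intervals.

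**Figure D2:**
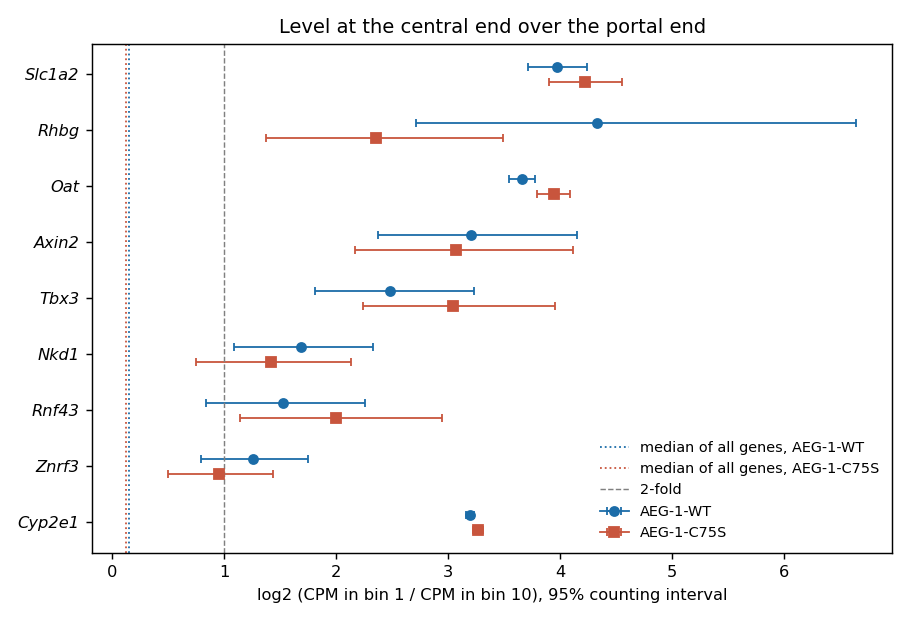
Log2 ratio of the level in bin 1 over the level in bin 10 for the 8 members with at least 50 UMIs in these bins and for Cyp2e1, which made the axis, with 95% counting intervals. Dotted lines are the medians of all genes (0.15 and 0.12), and the dashed line is 2-fold. All members but Znrf3 in AEG-1-C75S (0.96) lie to the right of the 2-fold line.

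Along the ratio of Cyp2f2 to Cyp2e1, Oat and Slc1a2 showed no sharp step after bin 1, and the ring itself was not located in these sections. In bin 2, Oat and Slc1a2 were still at 71.5% to 76.0% of their bin 1 level, so the spots of bins 1 and 2 were divided again, at the median of Oat per spot total, into 231 Oat-rich and 231 Oat-poor spots in AEG-1-WT versus 216 and 217 in AEG-1-C75S. Oat, which made this split, was at 2819 and 871 CPM in AEG-1-WT, versus 2088 and 657 CPM in AEG-1-C75S. Slc1a2 was at 729 CPM in the Oat-rich and 143 CPM in the Oat-poor spots of AEG-1-WT, and at 563 and 117 CPM in AEG-1-C75S, a log2 ratio of 2.35 [2.22, 2.48] and 2.27 [2.12, 2.41]. Cyp2e1 differed by only 0.34 and 0.29 and Cyp2f2 by 0.05 and 0.12 on the log2 scale. Spots near each other on the axis, with a median ratio of 0.0342 in Oat-rich and 0.0405 in Oat-poor spots of AEG-1-WT (for AEG-1-C75S, 0.0574 and 0.0627), thus differed in Slc1a2. The choice of bins 1 and 2 itself limited the spread of the axis genes. Cyp1a2, a central cytochrome P450 that did not make the axis, was higher in Oat-rich spots by 0.63 and 0.61 on the log2 scale.

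Rhbg followed the same division, with 85 UMIs in Oat-rich and 13 in Oat-poor spots of AEG-1-WT versus 87 and 21 in AEG-1-C75S, log2 ratios of 2.71 [1.86, 3.68] and 1.89 [1.19, 2.66]. Lgr5 had 15 and 7 UMIs in AEG-1-WT versus 21 and 4 in AEG-1-C75S. Axin2 was higher in Oat-rich spots by 0.87 and 1.17 and Tbx3 by 1.35 and 0.58 on the log2 scale. Nkd1 differed by 0.98 and 0.53, Znrf3 by 0.61 and 0.56, and Rnf43 by 0.50 and 0.80. Of the 7 members with at least 50 UMIs beside Oat, 6 (AEG-1-WT) and 4 (AEG-1-C75S) were at least 1.5-fold higher in Oat-rich spots, against 3.02% of 8616 genes and 2.42% of 8688 genes. The 3 genes short of 1.5-fold in AEG-1-C75S were Tbx3, Znrf3 and Nkd1, and Rnf43 was short of it in AEG-1-WT. The 3.02% and 2.42% are shares of all genes and not of pericentral genes. Cyp1a2, a pericentral gene outside the members, was also past 1.5-fold, at 0.63 and 0.61 on the log2 scale. Znrf3 and Rnf43 in AEG-1-WT lay below Cyp1a2, as did Tbx3, Znrf3 and Nkd1 in AEG-1-C75S, and the rest of the 7 lay above it. Sp5, a transcription factor that Wnt signaling induces, was named after its values were seen: it had 69 and 19 UMIs in AEG-1-WT versus 47 and 7 in AEG-1-C75S. Rspo3, the R-spondin of the central vein, was higher in Oat-rich spots by 1.40 and 1.14 and Wnt2 by 0.72 and 0.58 on the log2 scale.

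Dividing the same spots into 5 parts by Oat, a finer division added after the first had been examined, gave a graded course. Slc1a2 was at 1054, 601, 275, 147 and 100.2 CPM from the most to the least Oat in AEG-1-WT, and at 820, 459, 219, 120 and 81.5 CPM in AEG-1-C75S. From the last part to the first it was thus 10.5 and 10.1 times higher, while Cyp2e1 was 1.41 and 1.40 times higher. Rhbg had 47, 24, 19, 4 and 4 UMIs in the parts of AEG-1-WT versus 47, 32, 9, 13 and 7 in those of AEG-1-C75S. Divided by Slc1a2 in place of Oat, the spots differed in Oat by 1.43 and 1.45, in Rhbg by 2.25 and 1.86 and in Axin2 by 1.01 and 1.10 on the log2 scale.

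**Figure D3:**
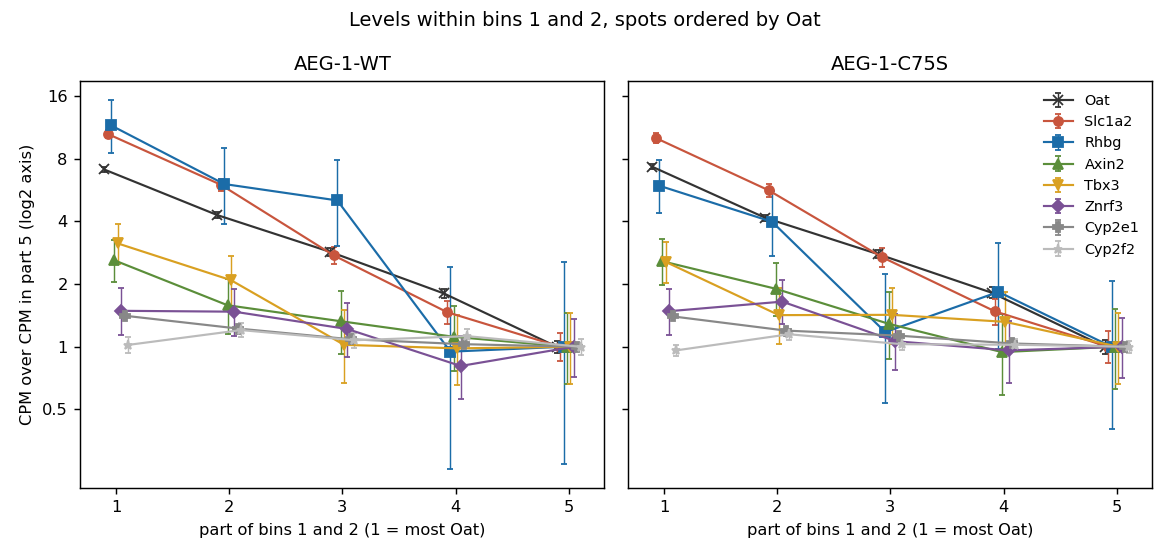
Levels within bins 1 and 2 of each section, with spots divided into 5 parts by Oat per spot total (part 1 has the most), each divided by the gene's level in part 5 (log2 axis). Bars are 95% Poisson intervals of each part's own UMIs; Oat made the division. Slc1a2 rises 10.5-fold and 10.1-fold from part 5 to part 1 and Cyp2e1 1.41-fold and 1.40-fold, and Rhbg rests on 4 and 7 UMIs in part 5.

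Shares of spots with a UMI were compared after thinning each spot to 5000 UMIs, which left out 6 spots (AEG-1-WT) and 17 spots (AEG-1-C75S). Slc1a2 was found in 70.1% [63.8, 76.0] of bin 1 spots and 14.0% [9.76, 19.2] of bin 10 spots in AEG-1-WT, and in 66.5% and 9.86% in AEG-1-C75S. Without thinning these shares were 88.3% and 37.8%, and 87.1% and 31.5%, at median depths of 16622 and 16248 UMIs and of 17984 and 17571 UMIs. Oat was found in 98.3% and 56.3% of thinned spots in AEG-1-WT and in 96.7% and 39.9% in AEG-1-C75S. Slc1a2 was thus not found in every thinned spot of the most central bin, although its level was highest there. Axin2 was found in 13.0% and 1.31% of thinned spots in AEG-1-WT and in 12.6% and 1.88% in AEG-1-C75S, and Znrf3 in 17.3% and 7.86%, and in 14.9% and 7.98%.

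Between the sections, the members differed less than 1.5-fold. Oat was at 838 CPM over the AEG-1-WT section and at 631 CPM over the AEG-1-C75S section, a log2 ratio (AEG-1-C75S divided by AEG-1-WT) of -0.41 [-0.43, -0.39]. Slc1a2 was at 178 and 151 CPM (-0.23 [-0.28, -0.18]), Axin2 at 12.9 and 11.2 CPM (-0.21 [-0.39, -0.03]) and Rnf43 at 10.4 and 7.25 CPM (-0.52 [-0.74, -0.31]). For these 4 of 9 members the interval lay below 0, against 29.7% of 12004 genes with at least 50 UMIs. The Axin2 interval included 0 with TMM scaling factors (-0.16 [-0.34, 0.03]), with centering on the median gene (-0.16 [-0.34, 0.02]) and without the 20 most abundant genes (-0.17 [-0.35, 0.01]), and after thinning of the spots to 5000 UMIs the sign turned (0.02 [-0.34, 0.39]). The Rnf43 interval included 0 after thinning (-0.31 [-0.71, 0.10]). The intervals included 0 for Nkd1 (-0.17 [-0.35, 0.00]), Lgr5 (-0.25 [-0.80, 0.30]), Rhbg (0.17 [-0.10, 0.44]), Tbx3 (0.06 [-0.10, 0.22]) and Znrf3 (-0.01 [-0.14, 0.12]). Of the 9 members 0 were past 1.5-fold, and Rnf43 came nearest, at 1.43-fold. Of all genes, 5.20% were at least 1.5-fold lower in AEG-1-C75S and 7.49% differed by that much in either direction. At so low a share, 0 of 9 genes does not set the members apart from other genes. The median of the members was -0.21 and that of all genes -0.05. In whole regions of tissue, fewer cells of a kind and less RNA per cell cannot be told apart, and 1 section of each genotype may also hold unequal amounts of central and portal tissue.

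Oat was lower in AEG-1-C75S in every bin. The log2 ratio was -0.39 [-0.42, -0.35] in bins 1 and 2, -0.55 [-0.59, -0.51] in bins 3 to 5 and -0.32 [-0.37, -0.27] in bins 6 to 10. Slc1a2 was lower in the first 2 of these regions, by -0.31 [-0.38, -0.23] and -0.33 [-0.42, -0.25]. Summed over bins 6 to 10 it was level, at 64.8 CPM in AEG-1-WT versus 64.6 CPM in AEG-1-C75S. Its single bins there were not alike: in bin 10 it was lower in AEG-1-C75S (-0.53 [-0.94, -0.12], 126 and 83 UMIs). In bins 6 to 9 the values were -0.07, -0.005, 0.18 and 0.11, with intervals that included 0. Nkd1 was lower in bins 1 and 2 (-0.41 [-0.74, -0.09]) with intervals that included 0 elsewhere. Rnf43 was lower in all 3 regions, by -0.52 [-0.90, -0.14], -0.41 [-0.81, -0.02] and -0.65 [-1.02, -0.29]. Lgr5 had 30 UMIs in AEG-1-WT versus 10 in AEG-1-C75S in bins 3 to 5, but 22 and 25 in bins 1 and 2. Of the axis genes, Cyp2e1 differed by -0.13 and Cyp2f2 by 0.62 in bins 1 and 2, and the part of this shift in the values of each bin was not tested.

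**Figure D4:**
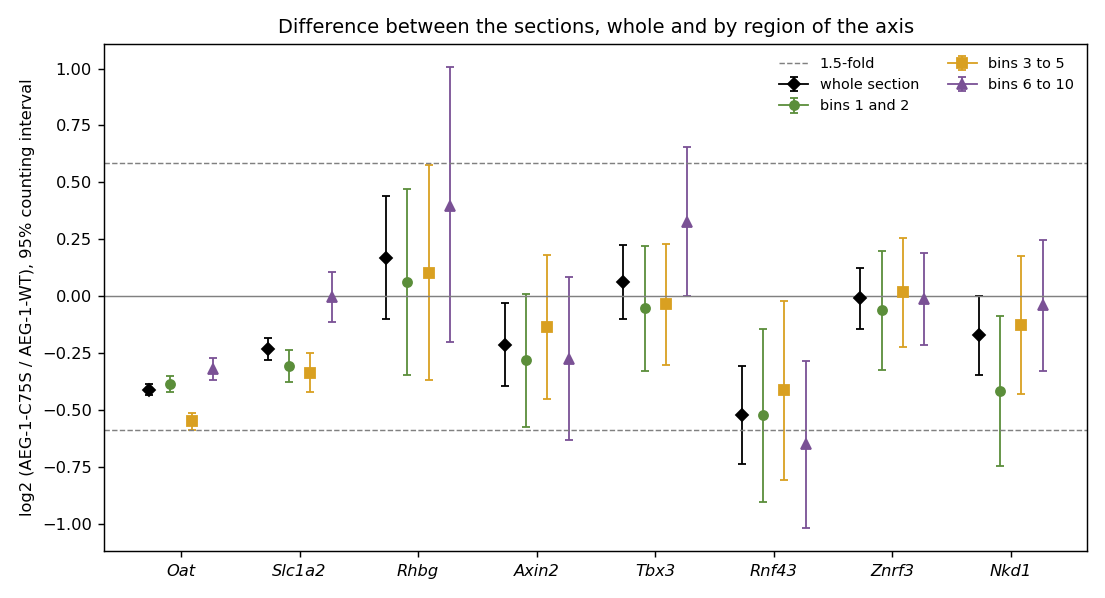
Log2 ratio (AEG-1-C75S divided by AEG-1-WT) for 8 members over the whole section (diamonds) and in 3 regions of the axis, with 95% counting intervals. Dashed lines are 1.5-fold in either direction. Oat lies below 0 in every region and Slc1a2 in bins 1 to 5. The Slc1a2 interval for the sum of bins 6 to 10 includes 0. The only region value past 1.5-fold is that of Rnf43 in bins 6 to 10 (-0.65).

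Steepness was also compared between the sections. The difference in the log2 ratio of bin 1 over bin 10, AEG-1-C75S minus AEG-1-WT, was 0.28 [0.10, 0.47] for Oat and -1.97 [-3.90, -0.04] for Rhbg, and its interval included 0 for the other 6 members that had one, against 9.48% of 8309 genes with an interval beyond 0. For bin 1 over bin 5, Oat alone had an interval beyond 0, 0.26 [0.17, 0.35], against 7.64% of 8456 genes. The Oat difference was not stable: with 5 wider bins in place of 10 it was -0.11 [-0.22, -0.00], and with Hsd17b13 in place of Cyp2f2 in the axis it was 0.08 [-0.10, 0.26]. The Rhbg difference rests on 3 and 10 UMIs in bin 10 and was -0.59 [-1.71, 0.52] with 5 bins. Over all bins the slopes of Oat differed by 0.01 [-0.00, 0.02], and the slope of Slc1a2 was less steep in AEG-1-C75S by 0.04 [0.02, 0.06]. Its end-bin ratio went the other way, with an interval that included 0 (0.25 [-0.16, 0.66]). The slopes of the axis genes were also less steep in AEG-1-C75S, with differences of 0.026 [0.023, 0.029] for Cyp2e1 and -0.037 [-0.043, -0.030] for Cyp2f2. The end-bin ratio of Cyp2e1 was larger there by 0.07 [0.02, 0.13]. The part of these shifts in the members' values was not tested.

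The genes whose course over the 20 bins of both sections was most like that of a member were taken by Pearson correlation, each bin divided by the gene's mean over its section. For Oat they were Slc1a2 (r = 0.996), Lhpp (a phosphatase, 0.993) and Slco1a1 (an organic anion transporter, 0.993). For Slc1a2 they were Oat, Slc13a3 (0.991) and Lhpp (0.987), and for Axin2 they were Oat (0.985), Slc1a2 (0.985) and Slco1a1 (0.985). Nkd1 was most like Cyp2c54 (0.976), Akr1c14 (0.975) and Cyp4a10 (0.972), Tbx3 like Cyp4a14 (0.988), Fitm1 (0.986) and Mup17 (0.986), Rnf43 like Slc13a3 (0.954), Prdx6 and Slc1a2 (0.948), and Znrf3 like Slc7a5 (0.929), Cyp4f14 (0.921) and Hint2 (0.918). The bins share spots, totals and the axis, and the median r with all 8733 genes was 0.26 to 0.27, so these values are descriptions.

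Other genes of the pathway were counted by the same ratio of bin 1 over bin 10. Of the Wnt ligands and agonists, 3 of 9 had at least 50 UMIs in the end bins, and 2 of them were at least 2-fold higher in bin 1 in each section. Wnt2 had 83 UMIs in bin 1 and 17 in bin 10 of AEG-1-WT versus 83 and 28 in AEG-1-C75S, log2 ratios of 2.27 and 1.44. Rspo3 had 119 and 30 in AEG-1-WT versus 135 and 22 in AEG-1-C75S, log2 ratios of 1.97 and 2.49. Wls, which carries Wnt proteins to the surface of the secreting cell, had ratios of 0.32 and 0.60. Wnt9b, a ligand of the central vein, had only 34 and 30 UMIs in the whole sections. Endothelial markers as a list were at 421 CPM in bin 1 and 313 CPM in bin 10 of AEG-1-WT, versus 405 and 326 CPM in AEG-1-C75S, all 7 with UMIs in both sections. Such a sum follows its most abundant genes and can hide others. Among the markers with at least 50 UMIs in the end bins, 1 of 5 in AEG-1-WT and 1 of 6 in AEG-1-C75S were at least 2-fold higher in bin 1. It was a different marker in each section.

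Of the Wnt receptors tested, 1 of 10 in the AEG-1-WT section and none of 9 in the other section were at least 2-fold higher in bin 1. That receptor was Fzd8, at log2 ratios of 1.04 and 0.73. Lrp6, Lgr4, Ryk and Lrp5, the receptors with most UMIs, lay between -0.16 and 0.68. None of 7 genes of the β-catenin destruction complex passed 2-fold in either direction in either section, among them Csnk1a1 (0.15 and 0.22), Gsk3a (0.47 and 0.26), Gsk3b (-0.07 and 0.08) and Apc (0.06 and -0.45). Axin1 was at log2 ratios of 0.61 and 0.52, against 3.20 and 3.07 for its paralog Axin2. Among the nuclear partners of β-catenin, Bcl9l had 200 and 99 UMIs in the end bins of AEG-1-WT versus 183 and 104 in those of AEG-1-C75S, short of 2-fold. Tcf7l1 was at -1.05 and -0.90 and Tcf7l2 at -0.43 and -0.80. Tcf7l1, which mostly represses its targets, was thus higher on the portal side in both sections. The related Tcf7 and Lef1, below 50 UMIs in the end bins, had more UMIs at the central end. Tcf7 had 22 in bin 1 and 8 in bin 10 of AEG-1-WT versus 23 and 9 in AEG-1-C75S, and Lef1 had 5 and 2 in each section.

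Of the other Wnt targets and secreted inhibitors tested, 3 of 5 in the AEG-1-WT section and 2 of 4 in the other section were at least 2-fold higher in bin 1. Notum, an inhibitor that inactivates Wnt proteins, was at log2 ratios of 1.91 and 1.77, and the receptor Tnfrsf19 had 81 UMIs in bin 1 and 20 in bin 10 of AEG-1-WT versus 69 and 15 in AEG-1-C75S. Sp5 had 62 UMIs in bin 1 and 3 in bin 10 of AEG-1-WT versus 31 and 0 in AEG-1-C75S. It thus reached the minimum of 50 UMIs through bin 1 of AEG-1-WT and fell short of it in AEG-1-C75S. The counts of 3 of 5 and 2 of 4 differ by Sp5 alone, through this minimum and not through a change in its course. The cell cycle gene Ccnd1, a target in many tissues, was at 0.14 and 0.12. Myc, another such target, was higher on the portal side (-1.39 and -0.70). It totalled 324 UMIs over AEG-1-WT and 886 over AEG-1-C75S, a log2 ratio of 1.47. Of the genes of glutamine and ammonia transport, none of 5 was at least 2-fold higher in bin 1. Slc38a3, Slc38a4, Slc7a2 and Aqp8, each with at least 50 UMIs in the end bins, had ratios between -1.34 and -0.17. The list held 7 genes without the members Slc1a2 and Rhbg, and transporters outside it were not searched for a central course. Slc1a4, a neutral amino acid carrier below that minimum, had 32 and 8 UMIs in these bins of AEG-1-WT versus 30 and 5 in AEG-1-C75S.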

How the data were processed

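The deposited files hold raw UMI counts per gene and spot, which the authors made with Space Ranger 2.0.1 against mm10 with a mouse probe set (Seurat 4.3.0 was used later in the study), without normalization. Barcodes and gene names are in their own lists, and 0 columns of other samples were present. Spots with at most 50000 UMIs and 100 to 7000 genes were kept, as in the study's methods. Counts were summed over spots. The tools were pandas 2.3.3, numpy 2.4.6 and, for intervals, scipy 1.17.1 under python 3.11.15, and matplotlib 3.10.9 for plots. To be counted, a ratio needed 50 UMIs or more in the groups compared. Some ratios below that minimum, such as that of Lgr5 in the end bins, are printed but not counted. Intervals of a difference between 2 log2 ratios, and of slopes (Poisson regression on bin number), are normal approximations. TMM factors came from edgeR 4.0.16 in R 4.3.3. Shares were computed after thinning to 5000 UMIs with seed 1. The binomial intervals of ratios were tested on simulated Poisson counts, where 95.8% to 95.9% of them held the true ratio. Such counts share the assumption of the intervals, so this cannot show how they hold where spots vary by more than counting error. Intervals of slopes and of differences were not simulated. Oat took the place of Glul in dividing the central spots. Spot coordinates were not used here, and promoter windows and gene positions are from RefSeq.

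The members and lists were chosen with earlier results of these data known. Lists were of Wnt ligands, receptors, destruction complex, nuclear effectors, other Wnt targets, other pericentral and periportal genes, nitrogen transport, and 6 cell types. Kupffer cell markers were at 677 CPM in bin 1 and 721 CPM in bin 10 of AEG-1-WT and at 866 and 970 CPM in AEG-1-C75S. Stellate cell markers were at 546 and 402 CPM, and at 680 and 412 CPM, and red blood cell genes at 744 and 390 CPM, and at 427 and 511 CPM. Genes named were the members, the axis genes and at most 4 genes of a list with most UMIs. The 5 genes steepest by the lower bound and the 3 most similar to each member, both with at least 500 UMIs, were also named. Sp5, Wnt9b, Fzd8, Axin1, Slc1a4, Tcf7 and Lef1 fell outside this rule and were named after their values were seen. Cyp1a2, not among the 4 genes of its list with most UMIs, also fell outside the rule. The alternatives were no spot filter, other scaling (TMM, totals that left out the 20 most abundant genes, centering on the median gene), equal weight per spot, thinning, minimums of 200 UMIs or none, other axis genes, 5 or 20 bins, spots of 10000 to 30000 UMIs and leaving out spots rich in portal tissue. The slope and the divisions by Slc1a2 and into 5 parts were added after the data had been seen. With 1 section per genotype no test was made.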

Additional observations from a re-analysis of the deposited data

How the results depend on the processing

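No paired analysis was possible because each genotype had 1 section. All 165 recomputed ratios of bin 1 over bin 10 of single members stayed above 0, and 145 stayed within the counting interval of the reported value. The 2-fold count of 8 and 7 members was 2 and 2 at 200 UMIs, where only Oat and Slc1a2 could be tested, and 2 and 3 of 3 tested after thinning. Of the section ratios, 63 of 70 stayed within their interval and none passed 1.5-fold; the 4 intervals below 0 became 2 after thinning, when Axin2 turned to 0.02 [-0.34, 0.39] and Rnf43 was at -0.31 [-0.71, 0.10]. Oat had a ratio between -0.45 and -0.35. The 2 members whose steepness differed between the sections became 1 with 200 UMIs, with the axis of summed portal and central genes, with equal weight per spot, without the spots rich in portal tissue, and with the slope (then Slc1a2), and 0 with Hsd17b13 in the axis or after thinning. The Oat difference turned to -0.11 with 5 bins and was 0.85 with 20. The 4 members at least 1.5-fold higher in Oat-rich AEG-1-C75S spots became 7 with Hsd17b13 in the axis, 7 with spots of 10000 to 30000 UMIs and 1 after thinning. Thinning leaves fewer UMIs, so its counting intervals are wider. The thinned section ratio of Rnf43 stayed within its reported interval, and that of Axin2 did not. Apart from wider intervals and fewer genes tested, the cause of these changes was not tested. Depth limits Lgr5 and Rhbg most. Lgr5, below 50 UMIs in the end bins, was left out of the counts that use those bins or the Oat-rich spots. It was included in the reported counts between whole sections and in the pairs of slopes. Between-animal spread is unknown.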
